A study of Zea mays with 8 samples.

Results

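Maize leaves fix carbon by the C4 pathway, which divides photosynthesis between mesophyll cells, where carbon dioxide is first bound into a C4 acid, and bundle sheath cells, where the acid is decarboxylated and Rubisco fixes the released carbon dioxide. In maize the acid that moves between the cells is mainly malate, which is made in mesophyll chloroplasts by NADP-malate dehydrogenase and split in bundle sheath chloroplasts by NADP-malic enzyme. Transcripts of these enzymes accumulate in one cell type and not in the other, so they also mark the cells that make them.

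The genes described here are 2 mesophyll genes, ppt1 and mdh6, and 2 bundle sheath genes, rbcS and me3. They were chosen by name, as every probe set whose annotated symbol or synonym was 1 of these names, which gave 4 probe sets, 1 per gene, among 17621 on the array and 4 of the 1108 genes it names. ppt1 (LOC100037776, chromosome 2) encodes a plastid transporter that exchanges phosphoenolpyruvate for phosphate, and mdh6 (LOC542374, chromosome 1) encodes the plastid NADP-malate dehydrogenase. rbcS (LOC542212, chromosome 4) encodes the small subunit of Rubisco, and me3 (LOC542233, chromosome 3) the plastid NADP-malic enzyme of the C4 pathway. A further gene carries the name rbcS in RefSeq (LOC100279574, chromosome 2) but has no probe set named for it here; because small subunit genes are near-identical copies, how far the rbcS probe set reads each of them was not tested. None of the 4 genes lies on chromosome 5 or 6, the chromosomes that differ between the genotypes.

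The 8 arrays measured all above-ground tissue of B73 maize seedlings 11 days after planting, in 4 pools of wild-type siblings and 4 pools of DpDf siblings with 12 plants each. DpDf plants are segmental aneuploids from the translocation T5-6b: besides a normal chromosome 6 they carry a 65 chromosome that brings an extra copy of most of chromosome 5's short arm, about 90% of it, and lacks the tip of the satellite of chromosome 6. The translocation had over 10 generations of backcrossing to B73. Both genotypes came from selfed DpDf plants, grew in a greenhouse with 16 hours of light, and were told apart by a single marker near the chromosome 5 break. Pools with the same replicate number were sown together, replicates 1 and 3 from one seed source and replicates 2 and 4 from another. Each shoot pool holds many cell types, so fewer cells of a type and less RNA per cell cannot be told apart.

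Deposited values are linear intensities, and array medians ran from 135.9 to 142.4. All 4 genes were read by bright probe sets: by mean signal, rbcS ranked 34, mdh6 707, ppt1 1078 and me3 1628 among the 17621. Brightness also reflects how well a probe set binds, so the genes are compared only by their differences between pools. The marker lists for mesophyll (4 of 4 matched genes tested) and bundle sheath (3 of 3) all gave signals past the filter on low values, and 2 of the 3 matched shoot meristem genes did. So did 3 of 5 matched genes of roots or seed, a list meant to be low, the brightest with a wild-type mean of 2346. Passing the filter thus does not show which tissue a signal came from. Of 12335 probe sets past the filter, 601 (4.87%) passed an adjusted p of 0.05 in limma, 497 (4.03%) higher and 104 (0.843%) lower in DpDf.

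None of the 4 genes passed that threshold (0 of 4, against 4.87% of all tested probe sets), and 3 of 4, ppt1, mdh6 and rbcS, had an unadjusted limma p under 0.05, against 17% of all tested probe sets. The mesophyll genes differed in opposite directions, ppt1 lower and mdh6 higher in DpDf, while both bundle sheath genes had a higher mean in DpDf. The differences were small, from 8.62% for rbcS to 16.9% for mdh6 in size.

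ppt1 had intensities of 3590, 3065, 3537 and 3428 in wild-type replicates 1 to 4 and of 3042, 3084, 2998 and 2795 in DpDf replicates 1 to 4. The wild-type pool of replicate 2 was the low one of its group and fell among the DpDf pools; the other wild-type pools lay above every DpDf pool. The means were 3405 ± 236 (SD, n = 4) in wild type and 2980 ± 128 (SD, n = 4) in DpDf. The log2 difference, DpDf minus wild type, was -0.19 (SE 0.062, 95% interval -0.33 to -0.052, limma adjusted p = 0.143), a ratio of 0.876. Within pairs it was -0.24, 0.0089, -0.24 and -0.29, so 1 of 4 pairs went the other way by less than 0.01. Without wild-type replicate 2, but with its DpDf partner kept, the difference was -0.24 and passed (limma adjusted p = 0.0359). Over all alternatives run for ppt1 the limma adjusted p ranged from 0.0359 to 0.752.

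mdh6 had intensities of 5133, 4869, 4125 and 4251 in wild-type replicates 1 to 4 and of 5188, 5924, 5030 and 5292 in DpDf replicates 1 to 4. Every DpDf pool was above its own wild-type pool, but the groups overlapped because wild-type replicate 1 lay above DpDf replicate 3. The means were 4595 ± 484 (SD, n = 4) and 5359 ± 392 (SD, n = 4). The log2 difference was 0.23 (SE 0.081, 95% interval 0.043 to 0.41, limma adjusted p = 0.186). Within pairs it was 0.015, 0.28, 0.29 and 0.32, so the pools of replicate 1 hardly differed. With the replicate pairs as a block mdh6 rose past the threshold (limma adjusted p = 0.0489, SE 0.059, 95% interval 0.090 to 0.36), the only 1 of the 4 genes to do so; 10.2% of all tested probe sets passed in that fit, 6.81% higher and 3.35% lower. Over all alternatives run for mdh6 the adjusted p ranged from 0.0168 to 0.682.

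rbcS had intensities of 14728, 14611, 13745 and 13839 in wild-type replicates 1 to 4 and of 15319, 15496, 15493 and 15490 in DpDf replicates 1 to 4. The groups did not overlap, a pattern that 6.52% of all tested probe sets showed in the same direction. The DpDf pools were close together, with a mean of 15450 ± 87.0 (SD, n = 4) against 14231 ± 510 (SD, n = 4) in wild type. Whether the signal of so bright a probe set was compressed was not tested. The log2 difference was 0.12 (SE 0.035, 95% interval 0.042 to 0.20, limma adjusted p = 0.0977), with pair values of 0.057, 0.085, 0.17 and 0.16. A direction shared by all 4 pairs, seen for rbcS and mdh6, was also seen for 15% of tested probe sets upward and 18.1% downward.

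me3 had intensities of 2498, 2543, 1319 and 1477 in wild-type replicates 1 to 4 and of 2467, 3216, 1654 and 1547 in DpDf replicates 1 to 4. Its level differed more by replicate number than by genotype: in both genotypes the pools of replicates 1 and 2 were all above those of replicates 3 and 4. That split is not the split by seed source, which puts replicates 1 and 3 together. The within-genotype SD of me3, 0.50 on the log2 scale, was larger than that of 98.0% of tested probe sets, while that of rbcS, 0.037, was larger than that of 1.15%. The genotype difference of me3 was 0.18 (SE 0.28, 95% interval -0.45 to 0.81, limma adjusted p = 0.807) in the fit that leaves the replicate number out. Pair values were -0.018, 0.34, 0.33 and 0.067. With the replicate block the SE was 0.072 and the 95% interval 0.013 to 0.34, which lies above 0, but the gene did not pass after adjustment over the array (limma adjusted p = 0.164). In that fit 10.2% of all tested probe sets passed after adjustment. The share with a 95% interval clear of 0 was not counted. Without DpDf replicate 2, the highest pool, the difference turned to -0.021. That fit left the replicate number out and kept wild-type replicate 2, so the sowings were unbalanced. The pair values besides pair 2 were -0.018, 0.33 and 0.067.

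**Figure D1:**
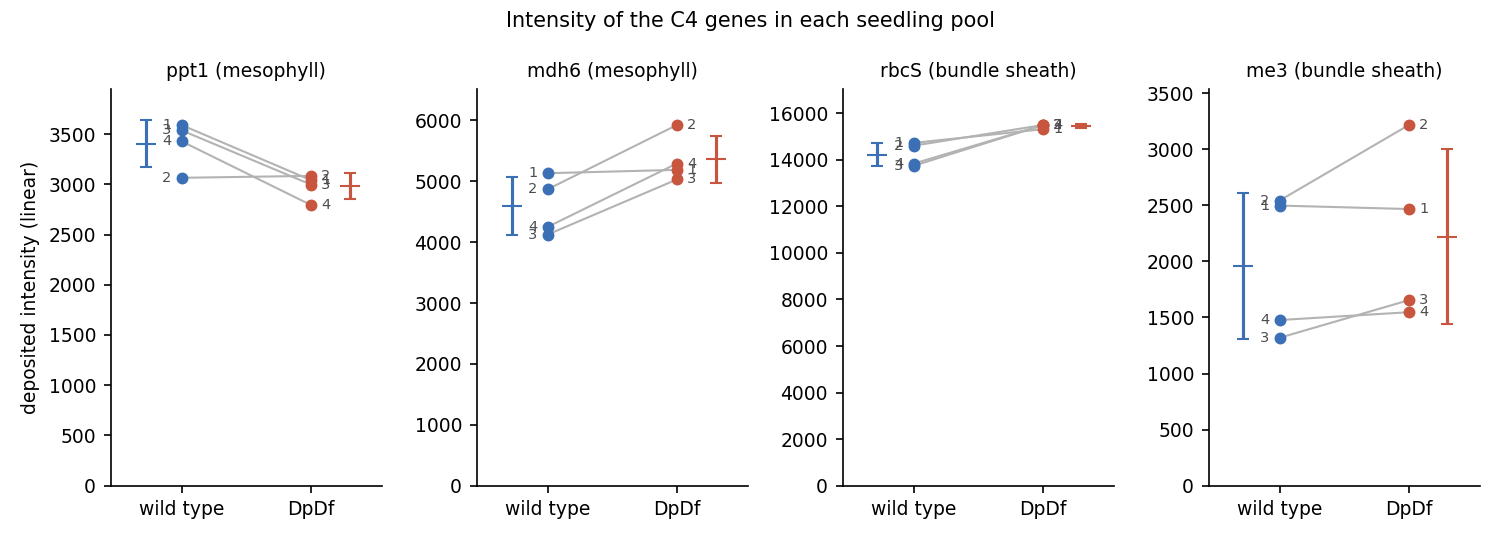
Deposited linear intensity (vertical axes, from 0) of ppt1, mdh6, rbcS and me3 in the 4 wild-type and 4 DpDf pools; points are pools, numbers are replicates, grey lines join pools of the same replicate, and side bars give mean and SD. The rbcS groups do not overlap, ppt1 is lower in 3 of 4 DpDf pools than in their partners, mdh6 is higher in all 4, and me3 separates replicates 1 and 2 from replicates 3 and 4.

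Set against each other by cell type, the mesophyll mean (ppt1 and mdh6) differed between the genotypes by -0.11, 0.15, 0.024 and 0.011 in pairs 1 to 4, with a mean of 0.017 ± 0.11 (SD, n = 4 pairs). The bundle sheath mean (rbcS and me3) differed by 0.019, 0.21, 0.25 and 0.11, with a mean of 0.15 ± 0.10 (SD, n = 4 pairs). Mesophyll minus bundle sheath was below 0 in each pair, at -0.13, -0.066, -0.23 and -0.10, with a mean of -0.13 ± 0.068 (SD, n = 4 pairs). It is given without a p, because the genes were chosen with earlier results known. Over the wider marker lists, a comparison added after seeing the data, the sign was not shared by all pairs. There the mesophyll mean took in pep1 and ppdk1 besides ppt1 and mdh6, and the bundle sheath mean took in rca1 besides rbcS and me3. Mesophyll minus bundle sheath was then 0.060, -0.0034, -0.084 and -0.093 in pairs 1 to 4, with a mean of -0.030 ± 0.072 (SD, n = 4 pairs).

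That set difference was smaller than the distance between the mesophyll genes themselves. The pairwise difference of mdh6 exceeded that of ppt1 by 0.25, 0.27, 0.52 and 0.61 in pairs 1 to 4, on average by 0.42 ± 0.18 (SD, n = 4 pairs). For the bundle sheath genes the pairwise difference of rbcS minus that of me3 was 0.075, -0.25, -0.15 and 0.096, with no shared sign. mdh6 and rbcS, from different cell types, differed by 0.11 ± 0.10 (SD, n = 4 pairs), less than the mesophyll genes did. ppt1 was thus the gene that stood apart: the differences of rbcS and me3 also exceeded its own in every pair, on average by 0.31 and 0.37. With mdh6 alone as the mesophyll gene, also added after seeing the data, mesophyll minus bundle sheath had a mean of 0.076, the opposite sign. That value was not uniform over pairs or genes: mdh6 minus me3 was 0.033, -0.056, -0.040 and 0.25 in pairs 1 to 4, with a mean of 0.047 ± 0.14 (SD, n = 4 pairs). mdh6 minus rbcS was -0.041 in pair 1 and above 0 in the other pairs.

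**Figure D2:**
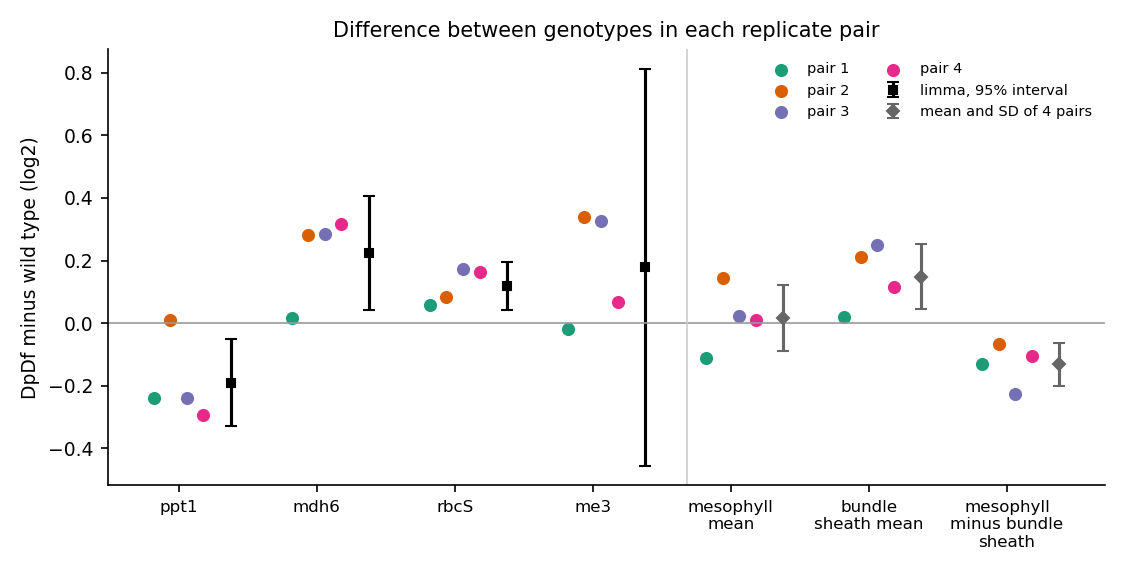
Log2 difference, DpDf minus wild type (vertical axis), in each replicate pair for the 4 genes, and at right for the mesophyll mean, the bundle sheath mean and their difference; coloured points are pairs, black squares give the limma difference with its 95% interval, and grey diamonds the mean and SD of the 4 pairs. mdh6 and ppt1 lie on opposite sides of 0 on average (0.23 and -0.19), and mesophyll minus bundle sheath has a mean of -0.13.

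The same differences were taken within each seed source and beside a measure of RNA quality. In the seed source of replicates 2 and 4 the differences were -0.14 for ppt1, 0.30 for mdh6, 0.12 for rbcS and 0.20 for me3. In the seed source of replicates 1 and 3 they were -0.24, 0.15, 0.11 and 0.15 in the same order. The genotype by seed source interaction was called for 0 of 12335 probe sets in limma (247, or 2%, at an unadjusted p under 0.05), and for the 4 genes its unadjusted p ran from 0.404 for mdh6 to 0.940 for me3. The 3' minus 5' log2 difference of 5 maize control transcripts, a measure of RNA integrity, was 0.91 ± 0.13 (SD, n = 4) in wild type and 1.20 ± 0.23 (SD, n = 4) in DpDf, highest in DpDf replicate 1 (1.52). With it as a covariate the differences were -0.16 for ppt1, 0.20 for mdh6 and 0.12 for rbcS, none past the threshold, and that of me3 turned to -0.18 (SE 0.35, limma adjusted p = 0.968). With the block and the covariate together, a fit added after seeing the data, mdh6 alone of the 4 genes passed (0.37), as did 5.81% of all tested probe sets, and me3 differed by 0.31 (limma adjusted p = 0.136).

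A further list held C4, Calvin cycle and photorespiration genes, other malic enzyme and malate dehydrogenase genes, and plastid regulators. Its genes were matched by symbol or synonym, and 18 were tested. Of these 0 were called in either direction in limma, against 4.87% of all tested probe sets. At an unadjusted limma p under 0.05 there were 2, both higher, against 17% of all tested probe sets in either direction. In DpDf 13 of 18 had a higher mean and 5 a lower one, with a median difference of 0.090, where the median of all tested probe sets was -0.023. With the 3' minus 5' covariate the tally was 9 higher and 9 lower, with a median of 0.013 against -0.018 for all tested probe sets. With the replicate block and the covariate together, a fit added after seeing the data, each listed gene kept its direction of the first fit. The tally there was again 13 higher and 5 lower.

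In the C4 cycle, means were higher in DpDf for 3 of 5 genes. pep1, which encodes the phosphoenolpyruvate carboxylase of the C4 pathway in mesophyll cells, had intensities of 11627, 10927, 7834 and 8329 in wild-type replicates 1 to 4 and of 11571, 12793, 10082 and 9406 in DpDf replicates 1 to 4. Like me3, it was lower in replicates 3 and 4 than in replicates 1 and 2 of the same genotype. Its log2 difference was 0.19 (SE 0.14), with limma adjusted p = 0.547 (0.0820 in the blocked fit). It was 0.055 with the covariate, and ran from 0.095 without wild-type replicate 3 to 0.29 without wild-type replicate 1. Each fit without a pool kept the partner of that pool and had no block, so the sowings were unbalanced. ppck1, which encodes a kinase of that carboxylase and lies on the long arm of chromosome 5, differed by 0.25 (SE 0.17, limma adjusted p = 0.521), and by 0.11 without DpDf replicate 4, 0.40 without DpDf replicate 1 and 0.49 with the covariate. ppdk1, encoding pyruvate, phosphate dikinase, which regenerates phosphoenolpyruvate, differed by 0.12 (SE 0.13, limma adjusted p = 0.682), with 0.028 left without wild-type replicate 3, 0.20 without wild-type replicate 1 and -0.046 with the covariate. Pair values of ppdk1 were 0.019, 0.12, 0.25 and 0.099 in pairs 1 to 4. The 3 further tested probe sets of ppdk1 gave differences of 0.017 to 0.16. In the blocked fit the limma intervals were 0.055 to 0.32 for pep1, 0.035 to 0.46 for ppck1 and 0.018 to 0.23 for ppdk1. Neither ppck1 nor ppdk1 passed there after adjustment over the array (limma adjusted p = 0.138 and 0.134). The share of all tested probe sets with a blocked interval clear of 0 was not counted. The genes with lower means, pdrp1 and pep4, differed by -0.16 (SE 0.15) and -0.070 (SE 0.088), with limma adjusted p = 0.640 and 0.747. Their blocked intervals were -0.37 to 0.049 and -0.22 to 0.085.

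Other malic enzyme and malate dehydrogenase genes had lower means. me2, a further NADP-malic enzyme gene, was lower in all 4 DpDf pools than in any wild-type pool (1922 to 2009 against 2034 to 2266). Its log2 difference was -0.11 (SE 0.052, limma adjusted p = 0.328), and 4.8% of all tested probe sets had DpDf pools wholly below wild type. me2 lies on chromosome 6, and whether it is in the tip that DpDf plants lack was not tested. mdh4, a cytosolic malate dehydrogenase gene, differed by -0.020 (SE 0.040, limma adjusted p = 0.847). The 95% interval of mdh4 held 0 where that of mdh6 did not. That the effects of mdh6 and mdh4 differ was not tested.

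Among 5 Calvin cycle and Rubisco genes, 4 had a higher mean. gpa1 and gpb1, plastid glyceraldehyde-3-phosphate dehydrogenase genes, differed by 0.19 (SE 0.11) and 0.16 (SE 0.14), and rca1, encoding Rubisco activase, by 0.053 (SE 0.12), with limma adjusted p = 0.407, 0.614 and 0.859. In the blocked fit the limma intervals were 0.058 to 0.33 for gpa1 (SE 0.058) and 0.019 to 0.29 for gpb1 (SE 0.060). For rca1 and bsd2 they were -0.18 to 0.29 and -0.16 to 0.17. None of these genes passed there after adjustment over the array (limma adjusted p = 0.0797, 0.144, 0.783 and 0.961). As above, the share of all tested probe sets with a blocked interval clear of 0 was not counted. With the covariate gpa1 and gpb1 differed by 0.068 and 0.042. Leaving out a pool but keeping its partner gave 0.095 (without wild-type replicate 3) to 0.25 (without wild-type replicate 2) for gpa1. For gpb1 it gave 0.050 (without DpDf replicate 2) to 0.24 (without wild-type replicate 2). bsd2, a bundle sheath defective gene needed for Rubisco to accumulate, differed by 0.0078 (SE 0.085, limma adjusted p = 0.978). All 5 photorespiration and linked genes had a higher mean, led by the catalase gene cat1 on the short arm of chromosome 5 (0.24, SE 0.091, limma adjusted p = 0.211), whose other tested probe set differed by -0.089. gs2, a glutamine synthetase gene, differed by 0.095 (SE 0.061, limma adjusted p = 0.473).

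The largest difference in the list belonged to glk1, which encodes a Golden2-like regulator of chloroplast development in mesophyll cells. It had intensities of 122.6, 136.6, 89.11 and 108.5 in wild-type replicates 1 to 4 and of 145.2, 191.2, 143.4 and 155.7 in DpDf replicates 1 to 4. The groups did not overlap, as was the case for 6.52% of all tested probe sets in the same direction. Its log2 difference was 0.48 (SE 0.14, limma adjusted p = 0.102). With the covariate the difference was 0.40 (limma adjusted p = 0.576). Leaving out a pool gave 0.37 (without wild-type replicate 3) to 0.58 (without wild-type replicate 2). In the blocked fit glk1 was the 1 gene of the 18 that passed, higher in DpDf (limma adjusted p = 0.00879), where 6.81% of all tested probe sets passed in that direction.

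**Figure D3:**
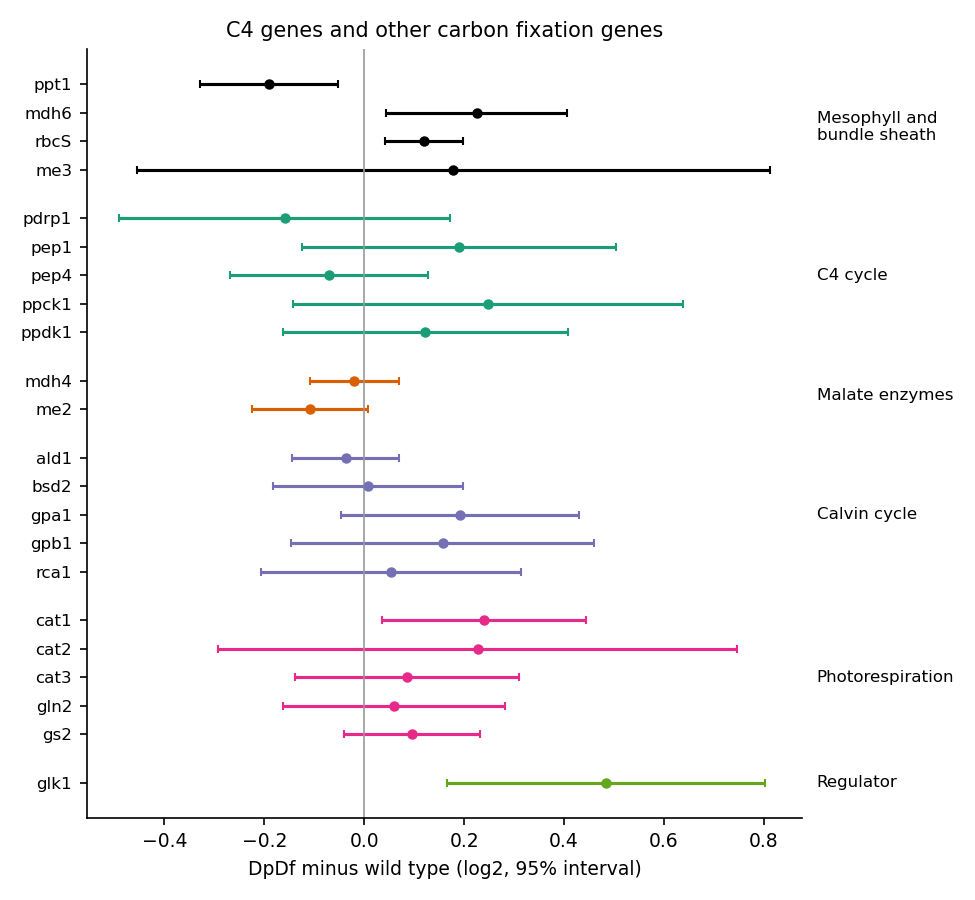
Log2 difference, DpDf minus wild type (horizontal axis), with its 95% limma interval for ppt1, mdh6, rbcS and me3 (black) and the 18 other listed genes grouped by role (colours). The intervals of ppt1, mdh6, rbcS, cat1 and glk1 do not hold 0, none of the genes passes the adjusted threshold, and me3 has the widest interval of the 4 genes (-0.45 to 0.81).

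The genes most like each of the 4 were found among 919 named genes by Pearson's r of log2 values over the 8 arrays. These arrays share 4 sowings and 2 genotypes, so r mixes the difference between genotypes with that between sowings. A pick by r thus itself favours genes that share the genotype difference or the replicate split of the gene they are set against. Among the 4 genes themselves, r was highest between mdh6 and rbcS (0.90) and lowest between ppt1 and rbcS (-0.78); ppt1 and mdh6 gave -0.58, and rbcS and me3 0.49.

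For ppt1 the nearest genes were CDPK (r = 0.96), a calcium-dependent protein kinase gene, a4Lea (r = 0.96) and LOC542610 (r = 0.95). Each had a lower mean in DpDf, by 0.15 to 0.22 in size, a direction that the pick by r with ppt1 favours, and none was called. For mdh6 they were psad1 (r = 0.97), a photosystem I subunit gene, glk1 (r = 0.95) and sig6 (r = 0.94), a sigma factor gene of the plastid RNA polymerase. psad1 and sig6 lie on chromosome 5 below 100 Mb, taken here as the short arm, most of which is duplicated. Whether each lies in the duplicated part was not tested, and the share of searched genes on that arm was not counted. For rbcS they were LOC542205 (r = 0.97), por (r = 0.96), a protochlorophyllide reductase gene of chlorophyll synthesis, and sig6 (r = 0.95). Their log2 differences were 0.48, 0.41 and 0.91, against 0.12 for rbcS. All were past the limma threshold (adjusted p = 0.00350, 0.00936 and 0.0128), as were 4.03% of all tested probe sets in that direction. The rbcS groups did not overlap, so a pick by r over both genotypes itself favours genes that differ between them. LOC542205 also lies on the short arm of chromosome 5.

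For me3 the nearest genes were gln2 (r = 0.98), a glutamine synthetase gene, a probe set of ppdk1 (r = 0.98) and pDCT2 (r = 0.98), a dicarboxylate transporter gene. pDCT2 had intensities of 1737, 1892, 1036 and 1185 in wild-type replicates 1 to 4 and of 1713, 1900, 1304 and 1156 in DpDf replicates 1 to 4, with the same split of replicates as me3. Its difference between genotypes was 0.071 (SE 0.22, limma adjusted p = 0.910), and those of gln2 and the ppdk1 probe set were 0.060 and 0.16, none called.

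**Figure D4:**
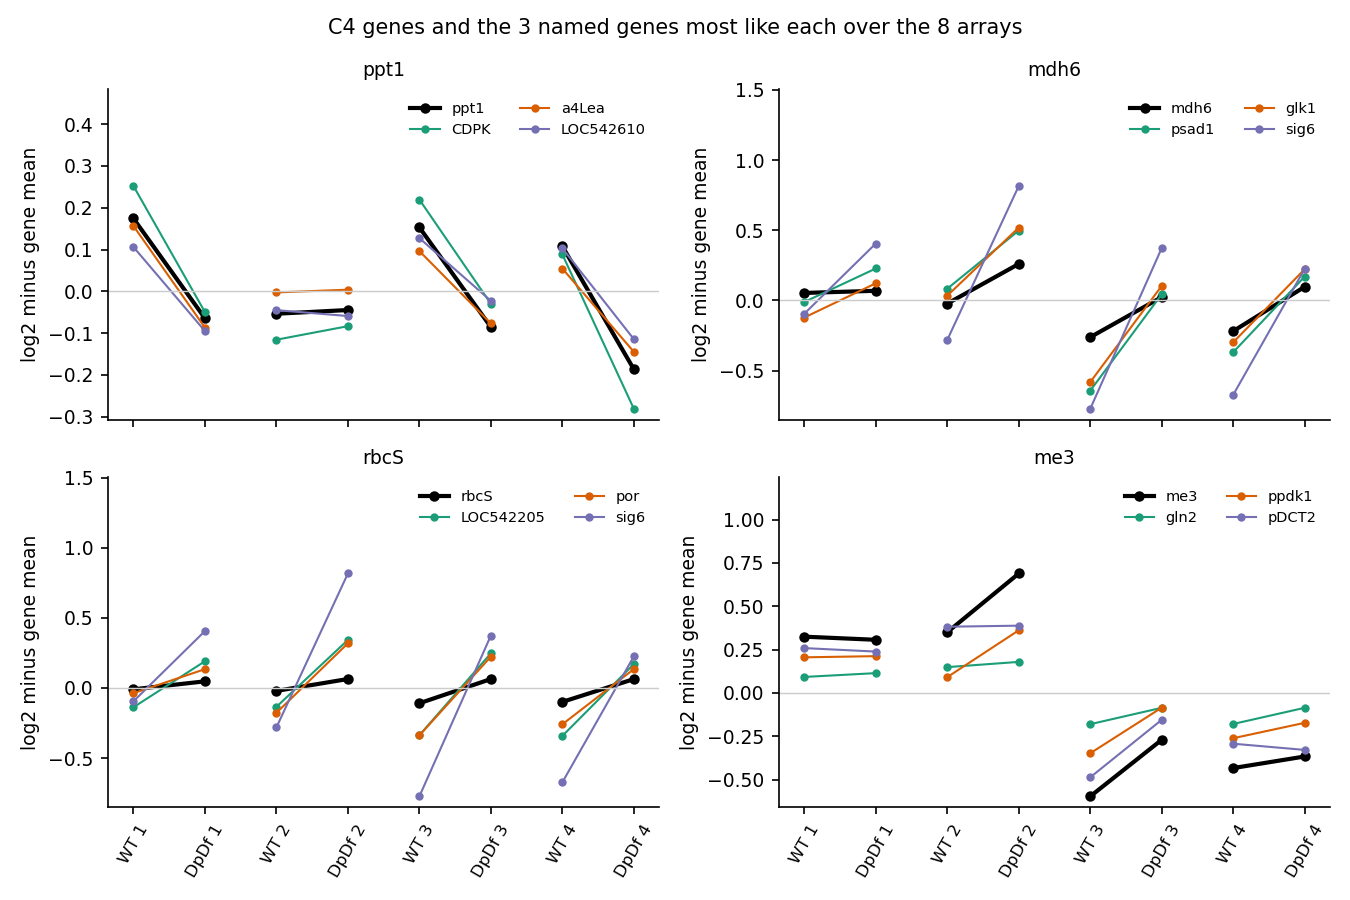
Log2 value minus the gene's mean over the 8 arrays (vertical axes) for each of the 4 genes (black, thick) and the 3 named genes most like it (colours), with arrays on the horizontal axis and lines joining the pools of a pair. me3 and its nearest genes are high in replicates 1 and 2 and low in replicates 3 and 4, whereas ppt1 and its nearest genes are lower in DpDf in pairs 1, 3 and 4. The nearest genes were picked by this likeness.

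Genes marking shoot meristem had lower means in DpDf. The knotted-like genes kn1 and lg3 differed by -0.29 and -0.53 (limma adjusted p = 0.362 and 0.363), and in the fit with the replicate block both passed (0.0387 and 0.0492), against 3.35% of all tested probe sets called lower there. Summed over both genes the intensity ran from 249.1 to 435.1 in wild type and from 210.3 to 296.1 in DpDf. Among 9 genes of dividing cells the mean was lower in DpDf for 8 (median difference -0.12), and of 6 epidermal genes 3 were higher and 3 lower. Without the block limma called 0 of either list, against 4.87% of all tested probe sets. At an unadjusted limma p under 0.05 there was 1 of each, against 17% of all tested probe sets. With the block 1 of each passed, both lower in DpDf: orc2, a replication origin recognition gene, at -0.37 (limma adjusted p = 0.0375), and ocl4, an epidermal homeodomain gene, at -0.31 (limma adjusted p = 0.0259). The part of tissue makeup in the differences of ppt1, mdh6, rbcS and me3 was not tested.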

How the data were processed

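The authors deposited 1 linear intensity value per probe set and array from an Affymetrix maize array; MAS5 is named, per the submitters' processing notes, with no role stated. Neither the scaling target nor a genome build is given in these sources. The 113 control probe sets among 17734 were not analysed. Platform gene numbers were looked up in RefSeq (assembly Zm-B73-REFERENCE-NAM-5.0; 1377 of 1452 single-gene probe sets matched), used for names, chromosome and gene order only. A chromosome 5 gene starting below 100 Mb was taken as short arm, and any other chromosome 5 gene as long arm. All 4 probe sets passed the filter, a mean log2 value above the 30th percentile (27.0 in linear units), which kept 12335.

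Genotypes were compared on log2 intensity with limma 3.58.1 in R 4.3.3 (eBayes with a mean-variance trend, genotype only, Benjamini-Hochberg over all 12335), after a test on simulated data. A gene with several probe sets was read by the brightest. The members and lists were chosen with earlier results of these data known. Named are the 4 genes, listed genes called or among the 2 smallest p of their group, and the 3 named genes most like each. Of the list, ald1, cat2 and cat3 are not discussed. Named outside that rule are pep4, pdrp1, rca1, bsd2, ppdk1 and kn1, lg3, orc2, ocl4. Of the matched list, 4 genes whose symbol is shared with another gene were set aside before the genotypes were compared.

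Per the labels, pools with the same number share a sowing. Their deviations from the group means correlated at r = 0.36, 0.51, 0.56 and 0.33, in each case above the r with any other number, so the numbers pair the samples. With 4 pools per genotype, the number of arrays limits the precision. No probe or gene sequence was used here.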

Additional observations from a re-analysis of the deposited data

Results flagged for a closer look

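In 2 of 46 groups of 4 pools checked, a pool lay far from the others by Dixon's ratio of gap to range at its 95% critical value; chance alone gives about 1 in 20 such groups. DpDf replicate 1 was the low pool for rbcS (ratio 0.966), at 15319 against 15490 to 15496 in the others, and it was also the pool with the highest 3' minus 5' measure (1.52). DpDf replicate 4 was the low pool for mdh4 (ratio 0.876), at 11692 against 12648 to 12789.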

How the results depend on the processing

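Alternatives covered normalization, pseudocounts of 16 and 1, no filter and a filter at the 50th percentile, no variance trend, the replicate block, seed source, the 3' minus 5' covariate and leaving out each pool. Leaving out a pool kept its partner of the same replicate in a fit without the block, which unbalanced the sowings. ppt1, mdh6 and rbcS kept their direction in all 21 alternatives each. The replicate block called mdh6 (0.23, adjusted p = 0.0489), 1 of the 18 listed genes and 1253 probe sets, and changed no other call of the 4 genes. With the block and the 3' minus 5' covariate together, chosen after seeing the data, mdh6 (0.37) and 2 listed genes, pep1 and glk1, passed, with 717 calls (5.81%) over the array. Calls over the array numbered 337 with the covariate alone and 32 and 1 within the seed sources of replicates 2 and 4 and of replicates 1 and 3, which hold fewer arrays. me3 reversed with the covariate (-0.18) and without DpDf replicate 2 (-0.021). Leaving out each pool gave -0.24 to -0.16 for ppt1 (passing at -0.24, without wild-type replicate 2), 0.18 to 0.28 for mdh6, 0.10 to 0.14 for rbcS, -0.021 to 0.33 for me3, 389 (without wild-type replicate 4) to 643 calls over the array, and 0 calls among listed genes. Mesophyll minus bundle sheath moved to -0.030 over the wider marker lists and to 0.076 with mdh6 without ppt1, both added after seeing the data. It ran from -0.18 to -0.085 over the other 11 alternatives, and from -0.15 to -0.10 without each replicate pair; choosing probe sets differently changed nothing, since each gene has 1. Listed genes kept direction and call in 356 of 375 results and passed in 3. Reversed were mdh4 with median centring (0.00078) and without DpDf replicate 4 (0.011), pdrp1 (0.033) within the seed source of replicates 2 and 4, and ald1 (0.021), bsd2 (-0.014) and rca1 (-0.062) within the other. The covariate reversed ppdk1 (-0.046), bsd2 (-0.027), cat2 (-0.017) and gln2 (-0.062). Leaving out each pool gave 0.067 at most for bsd2, 0.13 at most for rca1 and -0.032 at least for mdh4. bsd2 also reversed without wild-type replicate 3 (-0.0053), wild-type replicate 4 (-0.073) or DpDf replicate 1 (-0.0055), and rca1 without wild-type replicate 3 (-0.0012), wild-type replicate 4 (-0.022) or DpDf replicate 2 (-0.0033). None of these reversed values passed; the causes were not tested.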
